A study of Homo sapiens with 28 samples.

Results

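Gene expression in RELB knockout cells treated with lipopolysaccharide (LPS) was set against that in control cells given the same treatment. Of the 28 libraries of the series, 5 were chosen by their labels for this comparison: LPS-treated RELB clones 1 and 2, and LPS-treated control clones 1, 2 and 3 (CTR). All cells were U937, a human monocytic line grown in suspension. RELB had been disrupted by CRISPR in the RELB-/- clones, and the CTR clones had received guide RNAs without a specific target. LPS, the endotoxin of Gram-negative bacteria, was given at 500 ng/ml and RNA was taken at 6 h. The untreated libraries of the same 5 clones (2 RELB and 3 CTR) and the 9 LPS-treated libraries of p50, p52, p65 and cREL knockout clones were used for context. Each clone was sequenced once per treatment. The series describes the samples as clones without saying how each was derived. In the main fit, p-values rest on the spread within the 12 groups of genotype and treatment over all 28 libraries. The 2 libraries of a clone are treated there as independent.

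RELB is one of the 5 NF-kB subunits. It acts mostly as a dimer with p52, the processed product of NFKB2, at the end of the noncanonical pathway: receptors such as LTBR and CD40 stabilise the kinase NIK, encoded by MAP3K14, which activates IKK alpha and triggers processing of the NFKB2 precursor. LPS signals through TLR4 and drives mainly the canonical pathway, in which p65 and cREL dimers with p50 are released from the inhibitor NFKBIA and induce inflammatory genes, among them NFKB2 and RELB themselves. In myeloid cells RELB is best known for its part in the maturation of dendritic cells, the antigen-presenting cells that carry MHC class II.

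Messenger RNA of the targeted gene was lower but present in the knockout libraries. RELB, on chromosome 19 from 45001430 to 45038198, had 8.75 and 13.6 CPM (estimated counts as a rate of the library total, scaled by TMM) in RELB clones 1 and 2 with LPS, against 19.8, 24.8 and 22.8 CPM in CTR clones 1, 2 and 3. Both knockout libraries lay below all 3 controls, with a log2 fold of −0.82 ± 0.54 (SE; adjusted p = 0.652 with edgeR). The labels do not say where the guides cut, and a frameshift need not lower messenger RNA, so this level does not check the knockout. In the other 4 knockouts with LPS, RELB ran from 1.96 to 12.1 CPM, below every control as well. RELB clones did not differ from them by the test (0.84, edgeR adjusted p = 0.345). NFKB2, which encodes the partner of RELB, had 4.24 and 5.67 CPM in the RELB libraries, against 12.1, 11.6 and 15.1 CPM in CTR. The groups did not overlap, and the log2 fold was −1.10 ± 0.52 (SE; edgeR adjusted p = 0.498). The other 4 knockouts with LPS held 1.63 to 5.09 CPM of NFKB2, also below every control. NFKB1, the p50 gene, had 16.9 and 25.1 CPM against 25.1, 27.8 and 33.2 CPM in CTR (−0.43 ± 0.30). REL, the cREL gene, had 26.8 and 35.2 CPM against 46.1, 36.8 and 38.6 CPM in CTR (−0.12 ± 0.33). RELA, the p65 gene, overlapped, at 65.7 and 51.1 CPM in RELB against 50.8, 57.6 and 61.2 CPM in CTR. Its fitted log2 fold of −1.42, which was 0.05 with no batch term, is not interpreted. The reason is a p65 clone in batch A, whose libraries held RELA RNA unlike those of the 2 other p65 clones. It entered the fitted difference with a weight of −0.179 in each of its 2 libraries. With libraries weighted equally, p65 clones enter the fitted difference of every gene, p65 clones 2 and 3 at 0.089 per library.

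Of 18624 genes tested, 9 passed an adjusted p of 0.05 (edgeR quasi-likelihood test with sample batch in the model), which is 0.0483% of the genes; 6 rose (0.0322%) and 3 fell (0.0161%) in the RELB clones. At an unadjusted p under 0.05 there were 854 higher genes (4.59%) and 972 lower genes (5.22%), and the median log2 fold of all genes was −0.04. Among the genes that rose are those of secreted or matrix proteins (MFAP4, MST1, PLAU), of a lysosomal lipid cofactor (GM2A) and of a cAMP-activated exchange factor (RAPGEF4). Those that fell were EZH2, the catalytic subunit of the Polycomb repressive complex that methylates histone H3 at lysine 27, CDC42EP3, an effector of the GTPase CDC42, and the pseudogene LSM12P1. In all 9 the RELB libraries did not overlap the CTR libraries with LPS. The 9 were chosen by p-values from these same libraries, so their separation adds no support. Over all genes, 12.4% had RELB above without overlap and 12% had RELB below. All 9 had the same sign without LPS, in untreated libraries of the same clones, so this is not an independent check. The share of all genes with the same sign was not counted. MST1 and RAPGEF4 also passed there, 0.0107% of all genes. The number of calls depended strongly on the model and on single clones: it was 216 with DESeq2, 5 without the batch term, 0 in an edgeR fit to the 5 libraries alone (1231 at an unadjusted p under 0.05), 64 without RELB clone 1, 100 without RELB clone 2, 25 without CTR clone 1, 5 without CTR clone 2 and 4 without CTR clone 3. RAPGEF4 and LSM12P1 passed in all 5 of these fits with 1 clone left out, and the other 7 genes in 1 to 3 of the 5. In simulated counts for this comparison, 28 of 100 genes changed by 1 log2 unit and 81 of 100 changed by 2 log2 units were recovered. There 4 unchanged genes were called. The simulated libraries were independent draws without batch, clone or chromosome differences, and the changed genes averaged at least 5 CPM. These shares therefore need not hold for the real libraries.

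**Figure D1:**
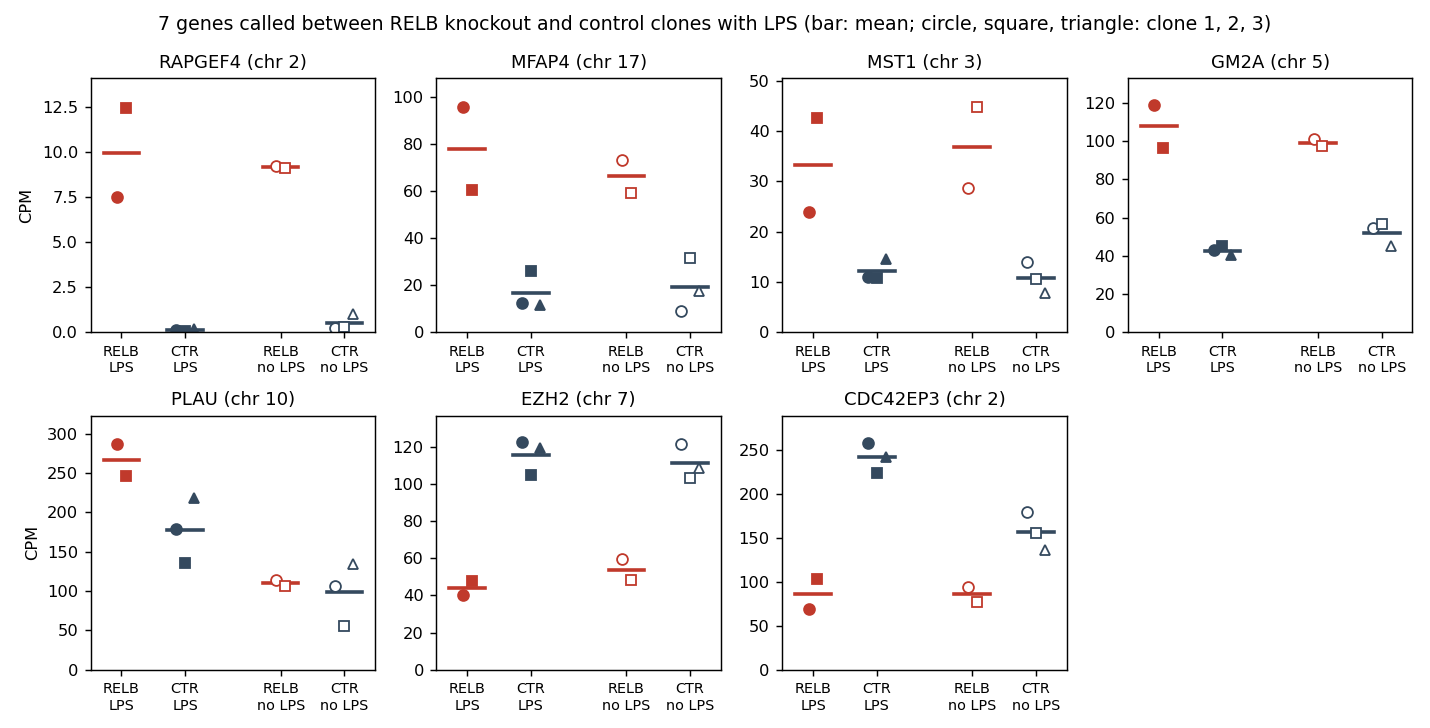
Level in CPM (vertical axes, from 0) of 7 of the 9 genes that passed, by genotype and treatment; filled symbols are LPS-treated libraries, open symbols untreated ones, circles, squares and triangles are clones 1, 2 and 3, and bars are means. The RELB libraries with LPS lie above the CTR libraries in the first 5 panels and below them for EZH2 and CDC42EP3.

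MFAP4, a glycoprotein of elastic fibres (chromosome 17 from 19383442 to 19387240), had 95.5 and 60.4 CPM in RELB with LPS, against 12.4, 25.8 and 11.4 CPM in CTR. Both RELB clones stood above every control, and CTR clone 2 was the highest control. The log2 fold was 1.86 ± 0.34 (SE; edgeR adjusted p = 0.0486), and within batch B, RELB clone 2 over CTR clone 2, the difference was 1.22. MFAP4 was also higher in RELB than in the other 4 knockouts with LPS (log2 fold 1.21, edgeR adjusted p = 0.0124), where it ran from 16.8 to 48.7 CPM.

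MST1 encodes macrophage-stimulating protein, the ligand of the receptor RON (chromosome 3 from 49683947 to 49689501). It had 23.9 and 42.6 CPM in RELB with LPS and 10.9, 10.8 and 14.6 CPM in CTR, with no overlap. The log2 fold was 1.56 ± 0.28 (edgeR adjusted p = 0.0486) with LPS and 1.90 without (edgeR adjusted p = 0.0143). The other knockouts held an intermediate 13.3 to 37.8 CPM, and RELB did not differ from them by the test (0.39, edgeR adjusted p = 0.431). MST1 has near-identical copies in the genome, so its reads may be shared with them.

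PLAU, the urokinase plasminogen activator (chromosome 10 from 73909177 to 73917497), had 287 and 246 CPM in RELB with LPS, against 179.5, 136 and 218 CPM in CTR. The groups came close, RELB clone 2 lying just above CTR clone 3. The log2 fold was 1.14 ± 0.20 (edgeR adjusted p = 0.0486) and 0.86 within batch B, but 0.58 without the batch term, where it did not pass (edgeR adjusted p = 0.595). Untreated levels overlapped, at 114 and 107 CPM in RELB against 107, 55.3 and 134 CPM in CTR. PLAU was higher than in the other 4 knockouts with LPS by a log2 fold of 1.32 (edgeR adjusted p = 3.3e-05).

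GM2A, the activator protein that presents GM2 ganglioside to beta-hexosaminidase A in the lysosome (chromosome 5 from 151212150 to 151270440), had 119 and 96.6 CPM in RELB with LPS and 43.1, 45.0 and 40.2 CPM in CTR. The 3 controls lay close together and far below both knockouts. The log2 fold was 1.29 ± 0.21 (edgeR adjusted p = 0.0435) and 1.10 within batch B. The other 4 knockouts with LPS held 54.4 to 93.2 CPM, above every control as well. RELB did not differ from them by the test (0.58, edgeR adjusted p = 0.076).

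EZH2 (chromosome 7 from 148807383 to 148884321) had 40.5 and 47.8 CPM in RELB with LPS, against 123, 105 and 119 CPM in CTR. Both clones were below every control, with a log2 fold of −1.25 ± 0.23 (edgeR adjusted p = 0.0486) and −1.13 within batch B; it was also lower than in the other 4 knockouts (−1.07, edgeR adjusted p = 0.00362). RELB clone 2 carries a lower level along the whole of chromosome 7, described further on. The median log2 difference from the other knockouts over this chromosome was −0.70 in RELB clone 2 and −0.05 in RELB clone 1. Of these, RELB clone 1 had the lower EZH2 level. The EZH2 log2 fold was −1.37 without RELB clone 2 and −1.09 without RELB clone 1. When the median of the 100 nearest genes was taken off each library, the EZH2 log2 fold was −0.63 and did not pass (edgeR adjusted p = 0.486). CDC42EP3, which links CDC42 to the actin and septin cytoskeleton (chromosome 2 from 37641882 to 37738468), had 69.3 and 104 CPM in RELB with LPS and 259, 224 and 243 CPM in CTR. The groups were far apart, with a log2 fold of −1.42 ± 0.26 (edgeR adjusted p = 0.0486) and −1.11 within batch B. The other 4 knockouts held 38.8 to 145 CPM, below every control as well, and RELB did not differ from them by the test (−0.12, edgeR adjusted p = 0.844).

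The 2 remaining genes were low or absent in one of the groups. RAPGEF4, which encodes the cAMP-activated exchange factor EPAC2 for the GTPase RAP1 (chromosome 2 from 172735274 to 173052893), had 108 and 219.3 estimated counts in RELB with LPS and 2, 1 and 3 in CTR. Scaled for library size, the ratio of the pooled groups was 88.5, with a 95% counting interval of 40.2 to 243 (exact binomial; counting error only), and the gene passed the test (edgeR adjusted p = 0.000187). It also exceeded the other 4 knockouts with LPS, which held 0.42 to 2.72 CPM (log2 fold 3.24, edgeR adjusted p = 5e-05). LSM12P1, a processed pseudogene, had 0 and 0 estimated counts in RELB with LPS and 37.3, 89.5 and 163.5 in CTR. Against a floor of 3 counts over the RELB group it was at least 59.6-fold lower (edgeR adjusted p = 0.000525), yet the untreated libraries of the same RELB clones held 80.3 and 27.1 counts. With clone as a random effect in limma voom LSM12P1 did not pass (adjusted p = 0.136). Its reads may be shared with the parent gene LSM12.

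RefSeq promoter windows (GRCh38.p14, from 250 bases before to 50 after the start) were at hand for 6 of the 9 genes, MST1, GM2A, PLAU, CDC42EP3, EZH2 and RAPGEF4. The NF-kB binding consensus, searched on both strands under the name kB consensus, occurs in 11.3% of 35116 such windows. Among these 6 it was found in that of MST1 alone, at position 13 after the start, on both strands. The core of the interferon-stimulated response element, also searched on both strands, occurs in 3.57% of the windows and was found in that of CDC42EP3, 10 bases before the start on the opposite strand. The other 4 windows held neither, nor the E-box CACGTG (7.26% of windows) or the sterol regulatory element 1 (0.0456%). The windows of CDC42EP3, GM2A, PLAU and RAPGEF4 lie at RefSeq starts inside the genes as GENCODE draws them. The windows of the 2 genes with a match are shown beside those of PLAU and EZH2, 1 gene that rose and 1 that fell without one; capitals mark the matched bases.
MST1, chr3:49689425-49689724, minus strand: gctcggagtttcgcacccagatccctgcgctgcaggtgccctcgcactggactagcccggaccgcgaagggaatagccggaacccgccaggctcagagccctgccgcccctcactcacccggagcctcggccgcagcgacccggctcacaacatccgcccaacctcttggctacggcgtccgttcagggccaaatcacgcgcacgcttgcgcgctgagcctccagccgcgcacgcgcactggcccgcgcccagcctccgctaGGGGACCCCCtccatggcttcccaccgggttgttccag
CDC42EP3, chr2:37672900-37673199, minus strand: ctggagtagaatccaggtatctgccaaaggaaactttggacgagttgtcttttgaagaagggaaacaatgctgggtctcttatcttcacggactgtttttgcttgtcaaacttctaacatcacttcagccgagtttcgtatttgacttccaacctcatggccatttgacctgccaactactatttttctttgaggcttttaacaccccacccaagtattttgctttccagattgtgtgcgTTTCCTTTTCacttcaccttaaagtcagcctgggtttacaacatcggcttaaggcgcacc
PLAU, chr10:73910360-73910659, plus strand: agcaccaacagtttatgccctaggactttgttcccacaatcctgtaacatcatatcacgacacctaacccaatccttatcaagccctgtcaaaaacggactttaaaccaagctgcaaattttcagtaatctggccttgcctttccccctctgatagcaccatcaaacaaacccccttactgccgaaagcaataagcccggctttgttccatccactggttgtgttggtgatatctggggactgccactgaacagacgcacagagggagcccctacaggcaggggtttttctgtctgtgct
EZH2, chr7:148884242-148884541, minus strand: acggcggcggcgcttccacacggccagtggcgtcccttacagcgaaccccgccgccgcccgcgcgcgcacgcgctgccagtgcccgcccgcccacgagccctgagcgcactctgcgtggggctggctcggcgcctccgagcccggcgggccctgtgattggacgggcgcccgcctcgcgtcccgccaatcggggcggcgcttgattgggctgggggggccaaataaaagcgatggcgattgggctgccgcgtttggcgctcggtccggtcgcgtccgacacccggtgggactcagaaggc

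Among the 13 genes of lowest p that did not pass, 9 were higher by sign and 4 lower. BHLHE40, a transcriptional repressor induced in activated immune cells, had 242 and 279 CPM in RELB with LPS and 119, 123 and 143 CPM in CTR (1.01 ± 0.19, edgeR adjusted p = 0.0615). The groups did not overlap, and BHLHE40 did pass against the other 4 knockouts (1.23, edgeR adjusted p = 4.2e-05). HEXA, the alpha chain of the hexosaminidase that works with GM2A, had 479 and 384 CPM in RELB and 205, 271 and 268 CPM in CTR (0.85 ± 0.18, edgeR adjusted p = 0.102). The other 4 knockouts with LPS held 313 to 451 CPM of HEXA, also above every control. RELB did not differ from them by the test (0.15, edgeR adjusted p = 0.682). The platelet and endothelial adhesion molecule PECAM1, on chromosome 17, had 457 and 283 CPM against 168, 168 and 164 CPM in CTR (1.14 ± 0.24, edgeR adjusted p = 0.102). PRKAR1A, the regulatory subunit of protein kinase A on the same chromosome, had 484 and 391 CPM against 298, 259.8 and 249.1 CPM in CTR (0.71 ± 0.14, edgeR adjusted p = 0.0798). IMPDH1, which makes guanine nucleotides, lies on chromosome 7 and had 109 and 72.2 CPM against 221, 187 and 206 CPM in CTR (−1.02 ± 0.20, edgeR adjusted p = 0.0604). For all 5 the groups were apart. DCAF7, BAIAP2 and TMEM104, all on chromosome 17, had log2 folds of 0.74, 1.44 and 1.09. ANLN and SEPT7, on chromosome 7, had −0.98 and −0.69. RHOXF2, a homeobox gene of the X chromosome, was read in CTR clone 2 alone among the 5 libraries, at 41.1 CPM. HLA-DQA1 is described with MHC class II.

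The inflammatory response was described on 14 genes that LPS raised in the 4 other knockouts, a choice that used neither RELB nor CTR libraries. There LPS raised 15 genes in all (0.0805% of those tested, edgeR adjusted p under 0.05), and the 14 had a log2 fold above 1. Of these, 0 passed between RELB and CTR with LPS; 9 were higher by sign, the median log2 fold was 0.22, and all genes tested had −0.04. The sign of this median depended on the model: it was −0.19 without the batch term and −0.16 in the 5 libraries alone. Against the other 4 knockouts with LPS, 12 of the 14 were higher in RELB by the test, beside 1.4% of all genes, and the median log2 fold was 2.55. That comparison shares its libraries with the choice of the genes. CCL3 with CCL3L1 and CCL4 with CCL4L2, all among the 14, are near copies that may share reads.

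IL1B, an inflammatory cytokine, had 559 and 425 CPM in RELB with LPS, 8.26 to 71.0 CPM in the 9 libraries of the other knockouts, and 195, 394 and 316 CPM in CTR. The RELB libraries were above all the others, with log2 folds of 0.73 ± 0.54 over CTR (edgeR adjusted p = 0.70) and 3.78 over the other knockouts (edgeR adjusted p = 2.1e-05). The neutrophil chemokine CXCL8 had 1350.0 and 1705 CPM in RELB, 65.7 to 261 CPM in the other knockouts and 552, 1784 and 871 CPM in CTR. RELB lay inside the range of CTR (0.30 ± 0.45, edgeR adjusted p = 0.886) and above every other knockout (2.93, edgeR adjusted p = 3.3e-05). TNFAIP3, which encodes the feedback inhibitor A20, had 121 and 120.0 CPM in RELB, 9.28 to 57.9 CPM in the other knockouts and 162, 157 and 199.6 CPM in CTR. NFKBIA, the inhibitor IkB alpha, had 105 and 200.03 CPM in RELB, 38.03 to 137 CPM in the other knockouts and 268, 228 and 301 CPM in CTR. Both genes were below every control without passing against CTR (edgeR adjusted p = 0.975 for TNFAIP3 and 0.599 for NFKBIA). With batch in the model the log2 fold of TNFAIP3 was 0.08, opposite in sign to its levels, and that of NFKBIA was −0.56. TNFAIP3 passed against the other knockouts (1.79, edgeR adjusted p = 0.0017). The interferon-inducible chemokine CXCL10 stood at 98.8 and 138 CPM in RELB, 3.62 to 100 CPM in the other knockouts, and 2385, 66.9 and 1061 CPM in CTR. Both RELB libraries lay within the range of the controls, and CTR clones 1 and 3 were far above CTR clone 2.

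**Figure D2:**
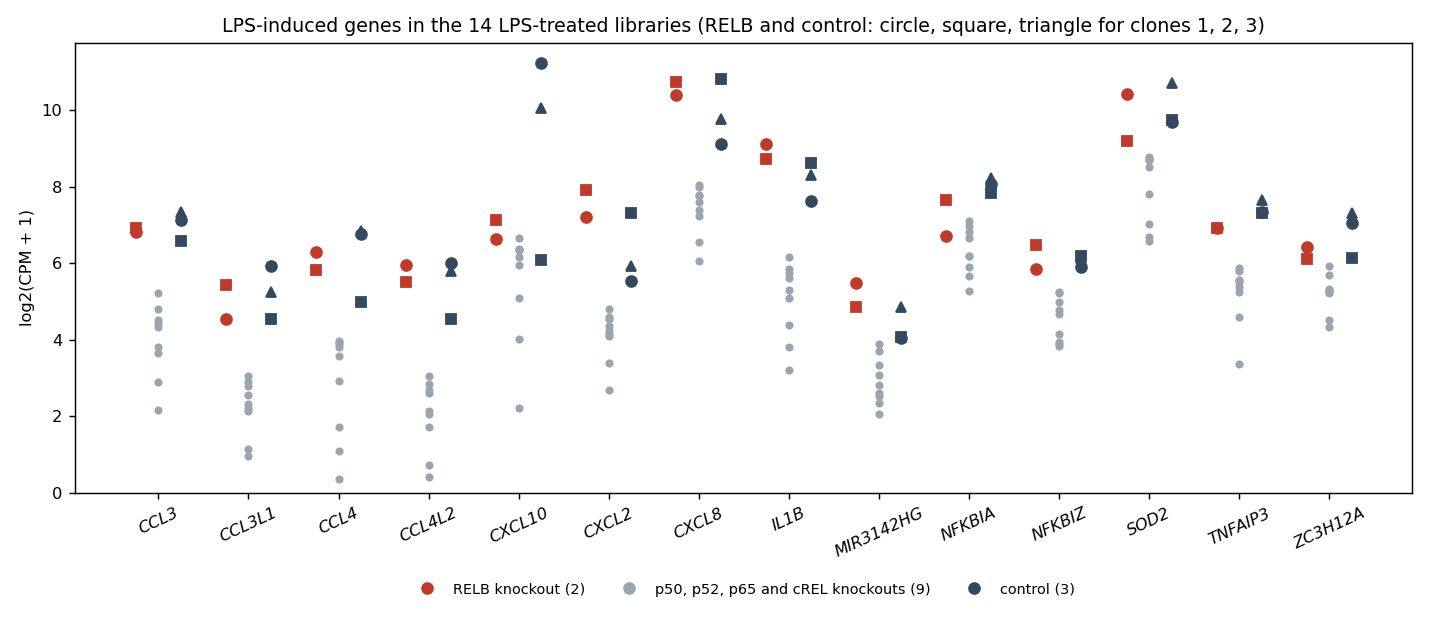
Level of the 14 LPS-induced genes, as log2(CPM + 1), in the LPS-treated libraries of RELB clones, of the other knockouts and of CTR clones. Both RELB libraries lie above all 9 libraries of the other knockouts for every gene drawn except CXCL10 and NFKBIA, and they overlap the CTR libraries for most genes.

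No gene of the pathway in which RELB acts passed the test. Of 22 fixed genes of the noncanonical pathway 18 were measured, 7 were higher by sign and the median log2 fold was −0.06. MAP3K14 had 18.4 and 24.2 CPM in RELB with LPS and 17.9, 13.2 and 13.1 CPM in CTR (0.78, edgeR adjusted p = 0.488), with both RELB libraries above. It passed against the other 4 knockouts (1.49, edgeR adjusted p = 0.00349). The receptor gene LTBR had 138 and 122 CPM against 212, 131 and 167 CPM in CTR (0.01, edgeR adjusted p = 1). Of 14 known targets of this pathway only 6 passed the filter on low counts. Their median log2 fold was −0.46, or 0.18 without CTR clone 2, and 0 passed the test. Among them BIRC3, an inhibitor of apoptosis, had 5.70 and 4.03 CPM in RELB with LPS and 15.6, 5.34 and 14.4 CPM in CTR, and TNFSF13B, the B-cell survival factor BAFF, 45.9 and 32.9 CPM against 76.5, 36.9 and 37.0 CPM. Markers of dendritic cell maturation had a median of −0.03 over 17 measured genes. Of 19 NF-kB feedback genes 13 were lower by sign (median −0.23), of 20 chemokines 12 (−0.14) and of 24 cytokines 11 (0.10), each with 0 calls. The sign of all these medians changed when single clones were left out: without RELB clone 2 those of the noncanonical pathway and feedback lists were 0.13 and 0.06, without CTR clone 1 that of chemokines was 0.14, and without CTR clone 2 those of cytokines and dendritic cell maturation were −0.13 and 0.21. Against the other 4 knockouts the feedback, chemokine and cytokine lists had medians of 0.67, 2.05 and 1.74, with 5, 9 and 5 genes called higher, beside 1.4% of all genes.

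**Figure D3:**
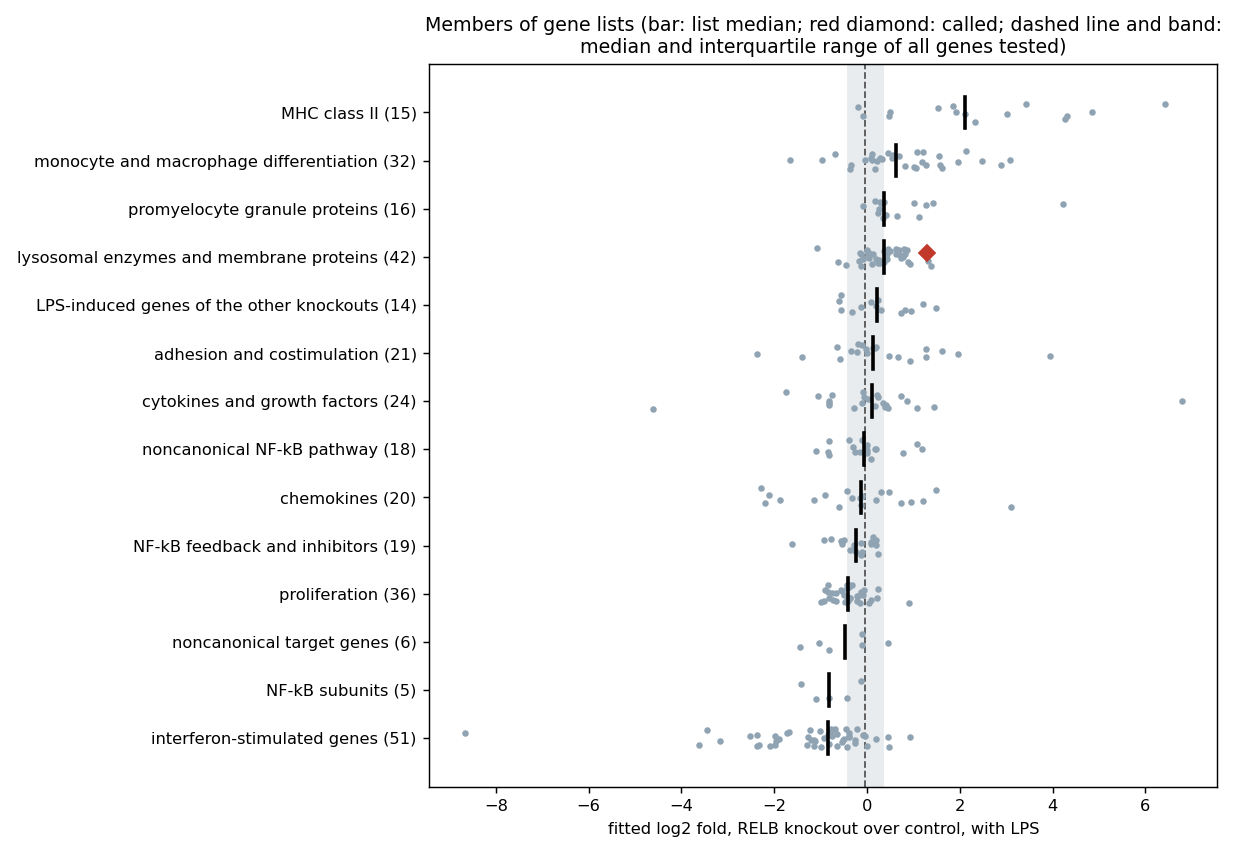
Fitted log2 fold of RELB over CTR with LPS (horizontal axis) for the measured members of 14 gene lists, 1 point a gene, with the number measured in brackets. Black bars are list medians, the red diamond a gene that passed (GM2A), and the dashed line and band give the median and interquartile range of all genes tested. MHC class II has the highest median, 2.12, and interferon-stimulated genes the lowest, −0.85.

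Genes of MHC class II antigen presentation had the highest median of the lists drawn. Of 15 measured, 13 were higher by sign and the median log2 fold was 2.12; 7 were higher at an unadjusted p under 0.05, beside 4.59% of all genes, but 0 passed adjustment. HLA-DRA, the alpha chain of HLA-DR, had 1865 and 849.6 CPM in RELB with LPS and 50.2, 248 and 262 CPM in CTR (3.02, edgeR adjusted p = 0.525). CD74, the invariant chain that guides class II molecules to the endosome, had 963 and 533 CPM against 109, 186 and 246 CPM in CTR (2.12, edgeR adjusted p = 0.404). HLA-DPA1 had 199 and 77.1 CPM against 3.01, 5.76 and 14.5 CPM in CTR (4.32, edgeR adjusted p = 0.369). In each of these the RELB libraries were above all controls and clone 1 was the higher. HLA-DQA1 had 27.6 and 9.19 CPM against 0.65, 0.73 and 1.03 CPM in CTR (4.84 ± 0.99, edgeR adjusted p = 0.102). HLA-DQA1, HLA-DPA1 and HLA-DPB1 passed against the other 4 knockouts with LPS (4.75, 4.89 and 5.03), where 5 of the 15 were called higher, beside 1.4% of all genes.

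Without LPS the median of the list was 2.18 and 0 members passed. Left-out clones moved the class II median to between 1.09 (without RELB clone 1) and 3.03 (without RELB clone 2), and within batch B it was 1.52. CIITA, the transactivator of class II genes, did not follow: it had 7.30 and 6.24 CPM in RELB with LPS and 8.38, 7.16 and 9.07 CPM in CTR. Among the other knockouts with LPS, HLA-DRA reached 703 CPM in 1 library, with a median of 99.5 CPM. In bulk RNA a change in the share of cells of 1 state and a change in RNA per cell cannot be told apart. The B-cell marker list, whose cells also carry class II, summed to 7.27 to 11.98 TPM in RELB and 8.70 to 12.3 TPM in CTR, and its defining gene MS4A1 was at 0 in all 5 libraries. HLA genes are close relatives and highly variable in sequence, so their estimated counts may share or lose reads.

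Genes of monocyte and macrophage differentiation tended the same way: of 32 measured, 26 were higher by sign, the median log2 fold was 0.63, and 13 were higher against 1 lower at an unadjusted p under 0.05 (4.59% and 5.22% of all genes), with 0 calls. ITGAM, the integrin chain CD11b, had 31.8 and 25.8 CPM in RELB with LPS and 8.83, 9.70 and 17.8 CPM in CTR (1.95, edgeR adjusted p = 0.111). ITGAX, the chain CD11c, had 46.8 and 37.7 CPM against 5.82, 18.5 and 11.4 CPM in CTR (1.62, edgeR adjusted p = 0.14). The complement receptor C5AR1 had 130.1 and 55.2 CPM against 13.2, 13.7 and 10.4 CPM in CTR (2.88, edgeR adjusted p = 0.219). All 3 genes were above every control, and all 3 passed against the other 4 knockouts (1.87, 1.67 and 2.95; edgeR adjusted p = 0.00236, 0.00212 and 0.00809). A pair of common markers did not separate: lysozyme, LYZ, had 1230.4 and 794 CPM against 2307, 390.1 and 667 CPM in CTR, and CD36 did not pass (edgeR adjusted p = 0.974). Promyelocyte granule genes had a median of 0.38 over 16 measured genes, with 15 higher by sign, but this sign was lost without the batch term (−0.19) and without CTR clone 2 (−0.14).

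Genes of cholesterol and fatty acid synthesis were higher by sign in 22 of 28 measured, with a median log2 fold of 0.31, and 11 higher and 0 lower at an unadjusted p under 0.05 (4.59% and 5.22% of all genes). HMGCS1, an early enzyme of the pathway, had 96.2 and 112 CPM in RELB with LPS and 27.3, 55.2 and 33.6 CPM in CTR (0.79, edgeR adjusted p = 0.215). DHCR7, the last enzyme of the pathway, had 123 and 176 CPM against 88.7, 85.1 and 89.1 CPM in CTR (0.87, edgeR adjusted p = 0.11). Both were above every control, RELB clone 2 more so than clone 1. HMGCS1 passed against the other 4 knockouts (1.56, edgeR adjusted p = 2.1e-05). DHCR7 did not (0.27, edgeR adjusted p = 0.428). SREBF1, the gene of a transcription factor of this pathway, had 2.43 and 24.1 CPM in RELB and 5.76, 29.1 and 9.48 CPM in CTR, where clone 1 of RELB was lowest and clone 2 lay within the range of CTR.

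Lysosomal genes, a list added after values had been seen, were higher by sign in 32 of 42 measured (median 0.36), with GM2A called. The median was 0.20 without RELB clone 1, 0.55 without RELB clone 2 and 0.16 without the batch term. Against the other 4 knockouts with LPS the list median was 0.09, with 26 of 42 higher by sign. There 2 were called higher and 1 lower, beside 1.4% and 0.36% of all genes. PSAP, the precursor of the saposins that assist lipid hydrolases, had 1405 and 1154 CPM in RELB with LPS and 562, 776 and 655 CPM in CTR (0.88, edgeR adjusted p = 0.11). The sialidase NEU1 had 322 and 149.9 CPM against 114, 104 and 103 CPM in CTR (1.32, edgeR adjusted p = 0.11). Both were above every control. The list held exceptions: beta-glucuronidase, GUSB, a gene of chromosome 7, had 61.9 and 113 CPM against 215, 219.7 and 168 CPM in CTR (−1.08, edgeR adjusted p = 0.202). The protease cathepsin D, CTSD, overlapped, at 5425 and 4717 CPM against 5752, 1713 and 3619 CPM in CTR (1.34, edgeR adjusted p = 0.14).

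Proliferation genes were lower by sign in 31 of 36 measured, with a median log2 fold of −0.41; 11 were lower and 0 higher at an unadjusted p under 0.05 (5.22% and 4.59% of all genes), and 0 passed. MKI67, the Ki-67 antigen, had 93.5 and 125 CPM in RELB with LPS and 214, 200.2 and 209 CPM in CTR (−0.73, edgeR adjusted p = 0.208). CDK1, the mitotic kinase, had 208 and 195 CPM against 334, 365 and 335 CPM in CTR (−0.75, edgeR adjusted p = 0.219). MCM7, a subunit of the replicative helicase encoded on chromosome 7, had 527 and 474 CPM against 1252, 915 and 1067 CPM in CTR (−0.85, edgeR adjusted p = 0.111). In all 3 the RELB libraries lay below every control. Without LPS the median against CTR was −0.41. Against the other 4 knockouts with LPS it was −0.19. The median against CTR with LPS was −0.17 without RELB clone 1 and −0.11 without CTR clone 2.

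Interferon-stimulated genes had the lowest median of the 14 lists drawn, −0.85 over 51 measured genes, with 46 lower by sign and 0 calls. This value depended on 1 control and on the fit. CTR clone 1 stood above the other knockouts' median library by a median of 3.64 log2 units over the list, whereas RELB clones 1 and 2 stood above it by 0.84 and 0.43 and CTR clones 2 and 3 by 0.25 and 0.75. IFIT2, an interferon-induced antiviral gene, had 9.45 and 6.98 CPM in RELB with LPS and 387, 3.99 and 33.5 CPM in CTR. Without CTR clone 1 the list median was 0.16, and within batch B it was 0.21. With CTR clone 1 kept it was −0.13 without the p65 clones, −0.31 with limma voom, −2.13 without the batch term and −2.07 without CTR clone 2. MHC class I and peptide supply, part of the same programme, had a median of −0.08, or 0.18 without RELB clone 2 and 0.12 without CTR clone 1.

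The remaining lists had medians between −0.29 and 0.35. They were survival and apoptosis (−0.29), TLR4 signalling (−0.08), adhesion and costimulation (0.13), antimicrobial and oxidative burst (0.35, with PLAU called), hypoxia and glycolysis (0.18), stress of the endoplasmic reticulum and integrated stress (0.05), heat shock and immediate early genes (0.18), myeloid transcription factors (0.10) and mitochondrial messenger RNA (−0.15). Most of these medians changed sign with 1 clone left out. Without RELB clone 1 those of adhesion, antimicrobial and endoplasmic reticulum stress genes were −0.19, −0.02 and −0.01. Without RELB clone 2 those of survival, TLR4, myeloid factor and mitochondrial genes were 0.03, 0.15, −0.02 and 0.12. Without the batch term the antimicrobial median was −0.12. The 2 that kept their sign with each clone left out were hypoxia, at 0.05 to 0.27, and heat shock, at 0.14 to 0.41. Adhesion genes stood higher against the other 4 knockouts, with a median of 1.62 and 7 of 21 called, beside 1.4% of all genes. Among these ICAM1, the ligand of leukocyte integrins, had 512 and 323 CPM in RELB with LPS and 606, 373 and 868 CPM in CTR.

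Whether the RELB difference itself changed with LPS was tested as an interaction, in which batch cancels. It gave 0 calls among 18624 genes with edgeR, 398 at an unadjusted p under 0.05, and 3 calls with DESeq2. Without LPS 2 genes passed, MST1 and RAPGEF4, 0.0107% of those tested. PLAU, for example, differed from CTR by 1.14 with LPS and by 0.79 without, and CDC42EP3 by −1.42 with and −0.76 without.

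RELB was also set against the other knockouts, which have 9 LPS-treated libraries where CTR has 3. With LPS 328 of 18624 genes (1.76%) passed against the mean of p50, p52, p65 and cREL; 261 were higher (1.4%) and 67 lower (0.36%). The chemokine CCL8 had 15.8 and 20.5 CPM in RELB, at most 3.64 CPM in the other knockouts, and 32.5, 3.94 and 6.55 CPM in CTR (5.54 over the other knockouts, edgeR adjusted p = 0.000136). Among the other leading genes, the collagenase MMP13 had a log2 fold of 5.04. The apoptosis inhibitor BIRC7 (6.44) had 1.6 and 125 CPM in RELB and 0 to 19.2 CPM in the other knockouts, so RELB clone 1 lay inside their range. Among genes averaging 5 CPM or more, the lower end by log2 fold was held by PAXIP1-AS1, FASTK, PRKAG2-AS1 and TFR2, all on chromosome 7 (−1.36 to −1.19), followed by CD3EAP (−1.16) and PHF7 (−1.15). CD3EAP, a subunit of RNA polymerase I, starts at 45406209 on chromosome 19, the chromosome of RELB. It had 16.1 and 22.12 CPM in RELB with LPS and 41.0, 30.9 and 48.4 CPM in CTR. Over chromosome 19 the median log2 difference from the other knockouts was −0.13 and −0.26 in RELB clones 1 and 2 with LPS. It was 0.09, −0.20 and 0.07 in CTR clones 1, 2 and 3. The other knockouts' libraries ran from −0.004 to 0.098. Among genes near RELB, GEMIN7 had 25.3 and 22.4 CPM against 29.8, 21.3 and 36.4 CPM in CTR, and ERCC1 had 124 and 98.3 CPM against 118, 86.7 and 116 CPM. CLPTM1, next to RELB, was low in RELB clone 1 alone, at 17.6 and 119 CPM against 85.2, 113 and 152 CPM in CTR.

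Levels along whole chromosomes or arms also differed between clones. For every library the difference from the median of the other knockouts' 9 libraries of the same treatment was taken per gene, and the median over 405 expressed genes of chromosome 7 was −0.70 in RELB clone 2 with LPS and −0.72 without. RELB clone 1 had −0.05 with LPS, and the CTR clones −0.03, 0.06 and −0.03. The lower level ran along the whole chromosome, as the running medians show. On chromosome 17, RELB clone 1 was higher from MAPT, which starts at 45894382, to near the end of the long arm, by 0.34 to 0.71 in 7 successive blocks of 25 genes, where RELB clone 2 was higher by 0.03 to 0.31. CTR clone 3 was higher by 0.38 to 0.65 over 5 blocks that partly overlap these. Chromosome 12 was higher in RELB clone 2 (0.44) and in CTR clone 1 (0.53), and CTR clone 1 was lower on chromosomes 6 (−0.41) and 15 (−0.25). CTR clone 2 was higher on chromosome 1, by 0.19 with LPS and 0.2 without. The other knockouts' libraries with LPS ran from −0.01 to 0.01 there.

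**Figure D4:**
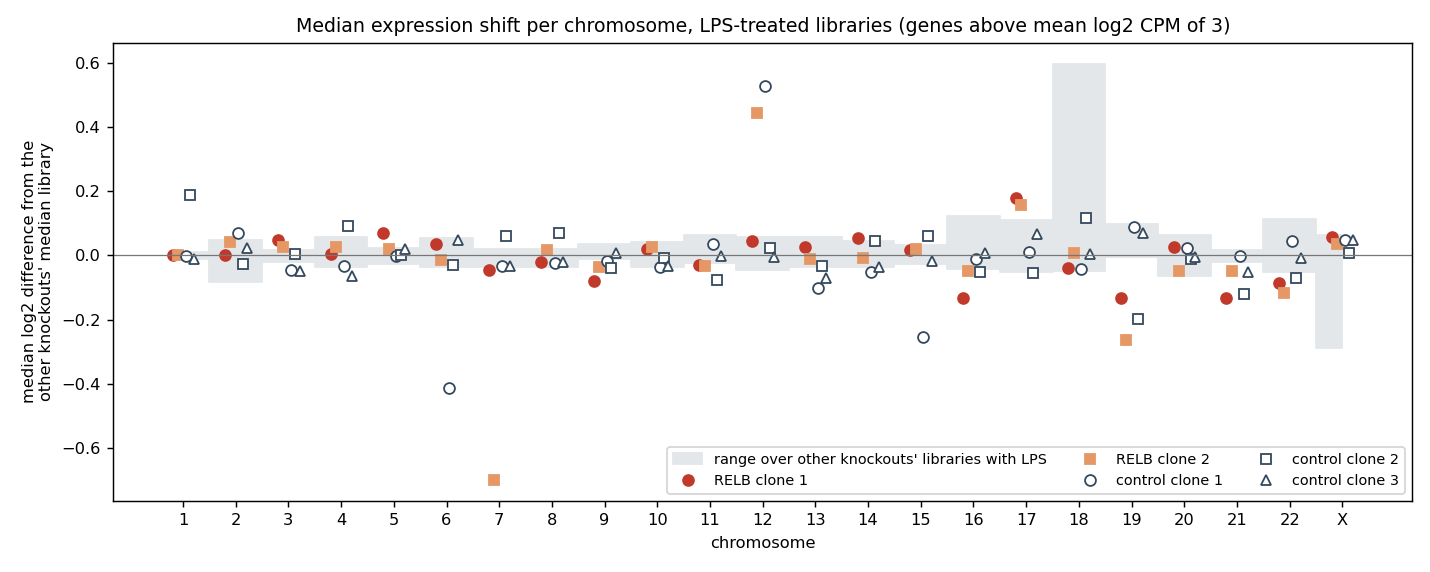
Median log2 difference of each LPS-treated RELB and CTR library from the median library of the other knockouts (vertical axis), by chromosome (horizontal axis), over protein-coding genes with a mean log2 CPM above 3. The grey area is the range over the other knockouts' LPS libraries. RELB clone 2 stands apart on chromosome 7 (−0.70), and RELB clone 2 and CTR clone 1 on chromosome 12 (0.44 and 0.53).

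These shifts touch the calls. Of 923 genes tested on chromosome 7, 175 (19.0%) were lower in RELB than in CTR at an unadjusted p under 0.05, against 5.22% of all genes. Of 1126 on chromosome 17, 130 (11.5%) were higher, against 4.59%. Of 1959 on chromosome 1, 172 (8.78%) were lower, against 5.22%. Of the 67 genes lower than in the other knockouts, 31 lay on chromosome 7. Of the 261 genes higher than in the other knockouts, 32 lay on chromosome 12 and 34 on chromosome 17. Chromosomes 12 and 17 hold 5.43% and 6.05% of the genes tested. Without RELB clone 1, 40 of 44 lower calls against CTR were on chromosome 7, and without RELB clone 2, 31 of 77 higher calls were on chromosome 17. Of the 20 genes of lowest p named here, 7 lay on chromosome 17 and 4 on chromosome 7, which hold 6.05% and 4.96% of the genes tested. With the median of the 100 nearest genes taken off each library there were 10 calls, 7 of them shared with the 9 above; EZH2 and MFAP4 no longer passed. The log2 fold of MFAP4 was then 1.80 (edgeR adjusted p = 0.0545), close to its 1.86 before, whereas that of EZH2 was −0.63. The number of copies of these chromosomes in each clone was not tested.

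**Figure D5:**
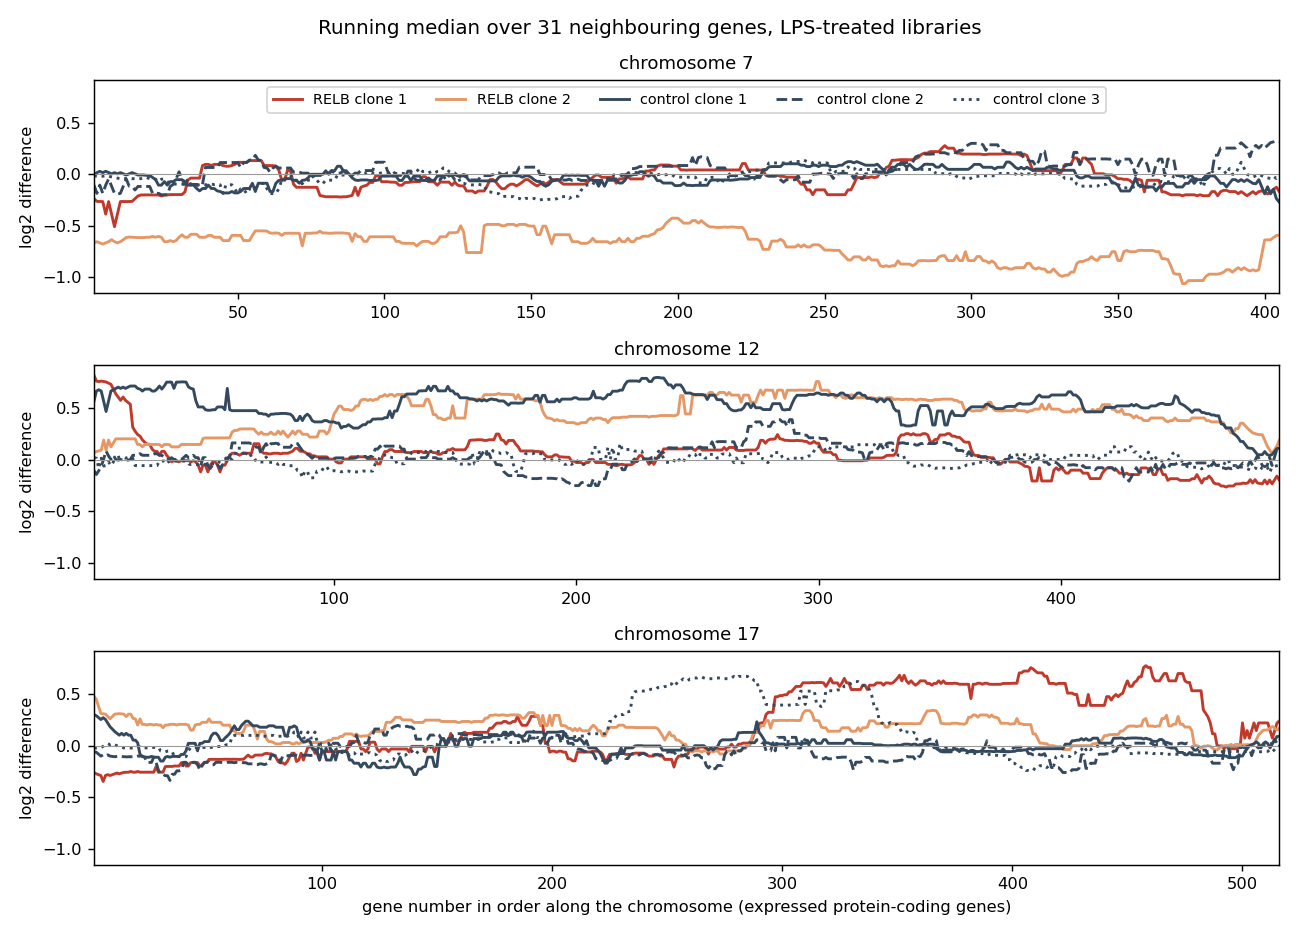
Running median over 31 neighbouring genes of the log2 difference from the other knockouts' median library (vertical axes), in gene order along chromosomes 7, 12 and 17 (horizontal axes), for the LPS-treated RELB and CTR libraries. RELB clone 2 lies below 0 along all of chromosome 7, and RELB clone 1 lies above 0 over the distal part of chromosome 17.

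Depth and identity were alike in the 5 libraries. Estimated counts summed to 14431768 to 18869928 per library (12643438 to 22122428 over all 28), and 23187 to 25136 genes had a value above 0. The 2 RELB libraries correlated at 0.947 in log2 CPM, CTR pairs at 0.948 to 0.961 and RELB with CTR at 0.940 to 0.957, which are ranges that overlap. Of 13 markers of the U937 line 12 averaged at least 1 TPM (a length-corrected abundance), the exception being MPO, and they summed to 2733 to 3889 TPM in RELB with LPS and 1542 to 3579 TPM in CTR. Markers of T and NK cells summed to 297 to 355 TPM in RELB and 352 to 501 TPM in CTR, while CD3D, CD3E and CD7 were at 0. Most of that sum was NKG7, with 308 and 234 TPM in RELB and 472, 309 and 339.7 TPM in CTR. IL7R ran the other way, at 37.2 and 51.8 TPM in RELB and 21.4, 30.7 and 23.3 TPM in CTR. The platelet list summed to 2.02 to 19.9 TPM in RELB and 0.823 to 9.76 TPM in CTR, and erythroid, epithelial and fibroblast lists to at most 2.74 TPM in RELB and at most 7.01 TPM in CTR.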

How the data were processed

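Complementary DNA of U937 clones was made with oligo(dT) primers and amplified by PCR, per the labels' protocols. The authors deposited 3 gene tables: estimated counts (not all whole, so rounded here), TPM scaled to a fixed total per library, and effective lengths. Salmon 0.11.3, FastQC 0.11.7 and GRCh38 are named in the submitters' processing notes; no source used here names the annotation or the strand settings, so antisense and overlapping genes may share reads. Symbols were matched to GENCODE release 29 for positions (56809 of 56809).

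Counts from all 28 libraries, in 12 groups of genotype and treatment, were tested with edgeR 4.0.16 in R 4.3.3: filterByExpr (minimum count 10, minimum total 15), TMM scaling, a robust quasi-likelihood fit with sample batch (A, B, C) as an additive term, and Benjamini-Hochberg adjustment over 18624 genes. The fit had 14 residual degrees of freedom. It treats the 2 libraries of a clone as independent, so p-values of comparisons between clones may be too small. Those of the interaction, which compares libraries within clones, may be too large. RELB clone 1 is in batch A, which holds no CTR clone, and is tied to CTR through other knockouts. The only batch with both genotypes is B, with 1 clone of each. Untreated and LPS-treated libraries of a clone deviated together (correlations 0.395 and 0.395 in RELB, 0.226 to 0.441 in CTR). CPM use TMM-scaled totals, and log2 CPM a prior count of 2. The script was tested on simulated data. Alternatives used DESeq2 1.42.0, limma voom 3.58.1 and changes of scaling, filter, batch term, libraries and local chromosome level.

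Genes were named by a rule: the 5 subunit genes, called genes averaging 5 CPM or more, the next lowest p-values to make 20, up to 4 called and 2 most abundant members of each list, and up to 6 called genes at either end against the other knockouts. RAPGEF4, LSM12P1, the genes next to RELB and further list members were chosen after their values were seen. The members and lists were chosen with earlier results of these data known, and the lysosomal list and 2 alternatives (without the p65 clones, and with local chromosome levels removed) after seeing the values. Motifs were searched in RefSeq windows (GRCh38.p14). Some genes that the rule names, 1 of the 9 called among them, are not reported here.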

Additional observations from a re-analysis of the deposited data

How the results depend on the processing

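Of the 9 genes called between RELB and CTR with LPS, none changed sign under the 12 other settings tried, and RAPGEF4 and LSM12P1 passed most often, under 11 and 10 of them. The number of calls was 216 with DESeq2, 15 with upper quartile scaling, 2 with an effective length offset, 436 with no low-count filter, 5 with no batch term, 2 with the 14 LPS libraries only, 0 with the 5 libraries only and no batch term (1231 at an unadjusted p under 0.05), and 131 without the p65 clones (7 shared). Leaving out 1 clone at a time gave 4 to 100 calls. The interaction gave 0 calls in the edgeR model as reported, 0 with clone as a replicate block, 3 with DESeq2, 34 with no low-count filter and 0 to 1 with 1 clone left out. Without LPS the 2 calls became 218 with DESeq2, 5 with limma voom, 4 with RLE size factors, 5 with upper quartile scaling, 1 with an effective length offset, 538 with no low-count filter, 1 with no batch term, 153 without the p65 clones, 5 with local chromosome levels removed and 2 to 88 with 1 clone left out. RELB against the other 4 knockouts with LPS gave 328 calls, which became 738 with DESeq2, 993 with no low-count filter, 163 with no batch term, 181 with the 14 LPS libraries only and 242 to 453 with 1 clone left out. The median of the LPS-induced genes, 0.22, was 0.53 with limma voom, −0.19 with no batch term, 0.64 with the 14 LPS libraries only, −0.16 with the 5 libraries only, and 0.17 to 0.53 with 1 clone left out. The causes were not tested. Replicate numbers do not pair RELB with CTR clones (correlations 0.033 and 0.038); with the number as a replicate block there were 97 calls with LPS, 127 without, 0 for the interaction and 490 against the other knockouts.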
